A study of Rattus norvegicus with 6 samples.

Results

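The genes described here encode 8 core proteins of the connective tissue matrix: the fibrillar collagen chains Col1a1, Col1a2 and Col3a1, the type VI collagen chain Col6a2, the proteoglycan decorin (Dcn), elastin (Eln), the collagen-binding glycoprotein Sparc and fibronectin (Fn1). They were chosen by symbol, with their ratios in these same arrays already known, and 8 of the 3158 named genes on the array, 14 of 8064 clones and 28 of 16128 spots belong to them. Log ratios were measured on 6 rat cDNA arrays, 2 for each of the tumor cell lines JB, JA and Amy, all grown out of esophageal tumors that reflux had induced. Every array carried total RNA of 1 line together with RNA of the normal pool, which mixes the lines Normal1 and Normal2 of the esophagus 1:1, and the dyes Cy3 and Cy5 were exchanged between the 2 arrays of a line. The labels used here give no strain, age or passage, and do not say whether the lines came from separate animals, so the spread over lines may hold less than the spread over tumors. Each line is 1 RNA extract and so 1 replicate (n = 3), and the number of arrays limits the precision.

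A ratio is written as tumor line over normal pool on the log2 scale. The direction is likely and rests on the order of names in the sample titles; with the opposite direction every "lower" would read "higher". The log base is not stated in the sources used here, and fold changes assume base 2. The arrays of a line correlated at 0.815 to 0.888 across 7180 features, a feature being a named gene or a clone with no single name. The median of all features was -0.12, and centring each array on its median moved it to -0.01 and moved the values below by the same small amount.

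Fibrillar collagens give connective tissue its tensile strength. The Col1a1 and Col1a2 chains wind into the type I triple helix, whereas type III is built of Col3a1 alone; decorin binds the surface of such fibrils and governs their growth. These proteins are made chiefly by fibroblasts, in the lamina propria that lies beneath the esophageal epithelium. Elastin gives recoil, Sparc binds collagen outside the cell, and type VI collagen and fibronectin form finer networks to which cells attach.

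In all 3 tumor lines the type I and type III collagen chains and decorin were far lower than in the normal pool, elastin and Sparc were lower as well, while Col6a2 was 2.09-fold higher and Fn1 depended on the line. Of the 8 genes, 6 lay below 0 on all 6 arrays, Col6a2 lay above 0 on all 6, and Fn1 lay below 0 on 2. In limma at an adjusted p under 0.05, 6 were called lower, 1 higher and 1 did not pass, where 53.5% of all features were called, 32.8% lower and 20.7% higher. Because the genes were chosen on this contrast, the counts describe them and test nothing. Their median was -4.31, against -0.12 for all features. Among 3158 named genes, 95 had a mean of -3 or lower, and 6 of those were among the 8. The member nearest that bound on the inside was elastin at -3.02, and the members outside it were Fn1 at 0.53 and Col6a2 at 1.06.

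**Figure D1:**
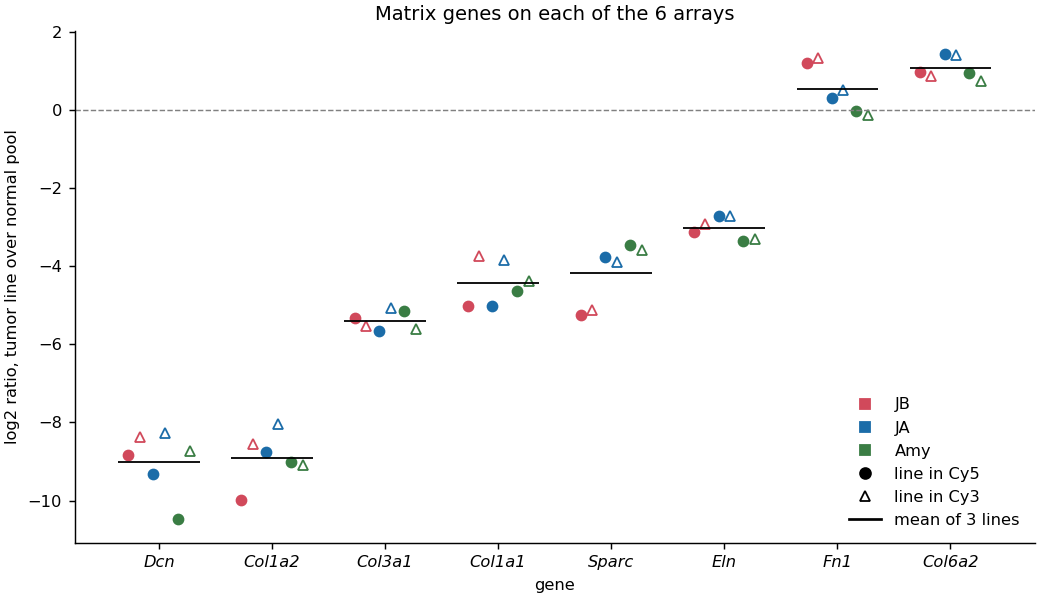
Log2 ratio of tumor line over normal pool (vertical axis) for each of the 8 genes (horizontal axis) on each array; colour gives the line, filled circles mark the line in Cy5 and open triangles the line in Cy3, and the bar is the mean of the 3 lines. The 6 genes on the left lie below -2.7 on every array, and the 2 on the right lie around or above 0.

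Across all features, which include clones with no single name, the lowest mean was -9.52. Decorin had the lowest mean of all named genes, -9.00 ± 0.53 (SD, n = 3 lines), or 512-fold lower. By array, with the line in Cy5 and then in Cy3, it stood at -8.84 and -8.37 in JB, -9.32 and -8.26 in JA, and -10.48 and -8.72 in Amy. Every array was below -8, and Amy was the lowest line in both dye orientations. The mean joins 2 clones that differed. Clone A stood at -10.21 in JB, -11.21 in JA and -12.64 in Amy with the line in Cy5, and at -8.94, -8.67 and -9.35 in the same lines with the line in Cy3. Clone B stood between -8.33 and -7.42 on all 6 arrays. Clone A was lower than clone B on each array, by 0.80 to 4.31, and the gap was wider in every line when it carried Cy5. A gap of 2.34 between the means of a gene's clones is wide for this array: of 655 genes with several clones, 8.40% had a range at least as large, and the median range was 0.53. No intensities were used here, so ratios of this size cannot be told apart from limits set by a dim channel.

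Col1a2, which supplies the α2 chain of type I collagen, followed with a mean of -8.90 ± 0.46 (SD, n = 3 lines), or 477-fold lower. With the line in Cy5 and then in Cy3 it stood at -10.00 and -8.54 in JB, -8.74 and -8.03 in JA, and -9.00 and -9.08 in Amy. JB and JA were lower in the Cy5 orientation, and Amy hardly moved between orientations. Its clones were close, with means of -8.83 and -8.97. The lowest array value came from clone B in JB with the line in Cy5, where the duplicate spots read -12.13 and -9.29. Decorin and Col1a2 were the 2 lowest named genes in each line, with decorin first in JA and Amy and Col1a2 first in JB. That order depended on dye orientation and clone. With the line in Cy3, Col1a2 averaged -8.55 and decorin -8.45, and in Amy they read -9.08 and -8.72. By clone B alone decorin averaged -7.83, above Col1a2. In JB, decorin clone A stood at -9.57, below Col1a2 at -9.27.

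Col1a1, the α1 chain of the same collagen, stood at -4.44 ± 0.06 (SD, n = 3 lines), or 21.7-fold lower. On the arrays it read -5.03 and -3.74 in JB, -5.03 and -3.84 in JA, and -4.64 and -4.38 in Amy, each with the line in Cy5 first and in Cy3 second. The line means lay far closer together than the arrays did. The ratio of Col1a2 was lower than that of Col1a1 on every array, by 3.72 to 4.97, and the difference averaged -4.46 ± 0.47 (SD, n = 3 lines). It was widest in JB at -4.88, and stood at -3.95 in JA and -4.53 in Amy. Each gene was read by its own clones, and whether the clones respond alike to RNA was not tested.

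Col3a1, the only chain of type III collagen, stood at -5.39 ± 0.03 (SD, n = 3 lines), or 42.0-fold lower. Its 6 arrays lay between -5.67 and -5.07. The lines did not separate: JB was 0.35 above JA with the lines in Cy5 and 0.46 below it in Cy3, and the comparison of JA with Amy turned sign in the same way. Col1a1 behaved likewise, with JB minus Amy at -0.39 in Cy5 and 0.64 in Cy3.

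Repeat readings of such low ratios were less precise than those near 0. Across the whole array, duplicate spots with a mean ratio below -8 differed by a median of 0.30, with a 90th percentile of 1.91, over 39 pairs of clone and array. Of these pairs, 19 were Dcn or Col1a2. Between -1 and 1 the median was 0.11 and the 90th percentile 0.45, over 35043 pairs. Between -6 and -4 the median was 0.20 and the 90th percentile 0.96. Duplicate spots of Col1a1 differed by a median of 0.51 and by up to 1.12, and those of Col3a1 by 0.41 and up to 1.27. The small SD over lines of these 2 genes therefore does not give the precision of a single reading.

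**Figure D2:**
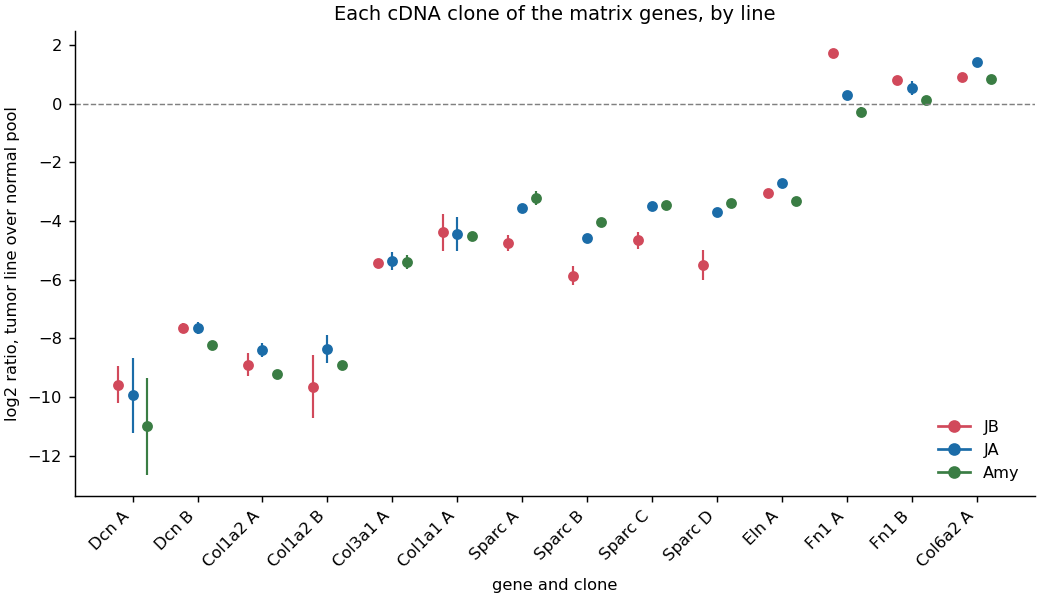
Log2 ratio of tumor line over normal pool (vertical axis) for each of the 14 clones (horizontal axis); a point is the mean of a line's 2 arrays and the vertical line joins its value in Cy5 to its value in Cy3. The longest lines belong to Dcn clone A and Col1a2 clone B, and the JB points of all 4 Sparc clones sit below those of JA and Amy.

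Elastin, the rubber-like core of elastic fibres, was read by 1 clone and stood at -3.02 ± 0.30 (SD, n = 3 lines), or 8.12-fold lower. With the line in Cy5 and then in Cy3 it read -3.12 and -2.93 in JB, -2.71 and -2.72 in JA, and -3.34 and -3.30 in Amy. The lines kept the order JA, JB, Amy, from least to most lowered, in both orientations. JA lay 0.63 above Amy in Cy5 and 0.58 above it in Cy3, a difference that 14.8% of all features equalled or exceeded between these lines.

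Sparc was the member on which the lines differed most. JB stood at -5.25 with the line in Cy5 and -5.13 in Cy3, against -3.76 and -3.90 in JA and -3.46 and -3.58 in Amy. JB was thus lower than the other lines in both orientations, while JA and Amy lay 0.31 apart. The mean was -4.18 ± 0.89 (SD, n = 3 lines), or 18.1-fold lower. JB minus JA came to -1.50 in Cy5 and -1.23 in Cy3, and JB minus Amy to -1.79 and -1.55. Differences at least as large were shown by 3.18% and 1.73% of all features. A line counts as apart where it lies at least 1 above, or at least 1 below, both others in both orientations; 199 of 7180 features, 2.77%, met that rule in some line and 0.696% met it with JB below. Sparc was the 1 member of 8 that met it. With 1 extract a line there is no test of this difference.

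All 4 Sparc clones put JB lowest. Their means over the lines were -3.84 for clone A, -4.82 for B, -3.87 for C and -4.20 for D. Clone B was lower than clone A on each array, by 0.51 to 1.73. JB minus JA ranged over the clones from -1.80 in D to -1.17 in C, and JB minus Amy from -2.11 in D to -1.20 in C. The size of the JB difference therefore depended on the clone, and its sign did not. As single features, clones B and D met the rule for a line apart, while A (-0.96 for JB minus JA in Cy5) and C (-0.94 for JB minus Amy in Cy5) just missed it.

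Promoter sequence for 2 of the 8 genes, Col1a2 and Sparc, was matched in the RefSeq table of build GRCr8; Col1a1, Col3a1, Col6a2, Dcn, Eln and Fn1 were not matched. Col1a2 and Sparc are shown because they were the 2 that were matched. Both were lower in every line, as were Col1a1, Col3a1, Dcn and Eln. Printed are the 100 bases from 250 to 151 before the annotated gene start, Col1a2 at chr4:33518307-33518406 on the plus strand and Sparc at chr10:40038967-40039066 on the minus strand. Each is read 5′ to 3′ along its gene, with capitals where a searched motif occurs.
Col1a2: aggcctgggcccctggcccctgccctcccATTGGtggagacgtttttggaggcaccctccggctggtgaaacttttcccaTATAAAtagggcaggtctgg
Sparc: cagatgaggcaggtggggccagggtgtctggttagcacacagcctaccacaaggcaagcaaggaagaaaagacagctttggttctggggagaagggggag
The motifs searched, on both strands and with no overlap between them in these sequences, were TATAAA (the TATA box), CCAAT (the CCAAT box) and GGGCGG (the GC box). Col1a2 held CCAAT on the opposite strand, starting 221 bases before the gene start, and TATAAA on its own strand, starting 170 bases before it. Sparc held none of the 3 in its whole window of 300 bases. In the 100 bases at the printed position of all 33469 promoters, 5.43% held TATAAA, 14.5% CCAAT and 10.4% GGGCGG. Over the whole window of 300 bases the shares were 14.2%, 37.5% and 33.1%. The G and C content was 60% in Col1a2 and 57% in Sparc. These matches describe letters and identify no binding site.

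Fibronectin, the adhesive glycoprotein bound by integrins, was higher than the pool in JB and near it in Amy. Over both clones it read 1.21 and 1.32 in JB, 0.32 and 0.50 in JA, and -0.04 and -0.12 in Amy, with the line in Cy5 first and in Cy3 second. Its mean of 0.53 ± 0.68 (SD, n = 3 lines) covers a difference of 1.35 between JB and Amy, which 3.20% of all features equalled or exceeded. JB minus JA was 0.90 in Cy5 and 0.82 in Cy3, and so stayed under the size of 1.

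The 2 Fn1 clones had nearly equal means, 0.58 for clone A and 0.49 for clone B, but did not rank the lines by the same distances. In JB clone A read 1.75 and 1.71 and clone B 0.68 and 0.93. In Amy clone A read -0.12 and -0.45, below 0 on both arrays, and clone B 0.05 and 0.21, above 0 on both. JB minus Amy was thus 2.02 by clone A and 0.68 by clone B. Clone A alone met the rule for a line apart, with JB higher. Both clones share 1 accession in the annotation, and the part of the transcript that each covers is not given in the sources used here.

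Col6a2, a chain of the beaded type VI filaments, was the member that was higher in every line. It read 0.97 and 0.88 in JB, 1.42 and 1.42 in JA, and 0.94 and 0.74 in Amy, with the line in Cy5 first. JA was the highest line in both orientations, by 0.45 and 0.54 over JB and by 0.48 and 0.68 over Amy. The mean was 1.06 ± 0.31 (SD, n = 3 lines), or 2.09-fold higher. Duplicate spots of its 1 clone differed by a median of 0.04. The difference between JA and Amy, 0.58, was equalled or exceeded by 16.1% of all features.

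**Figure D3:**
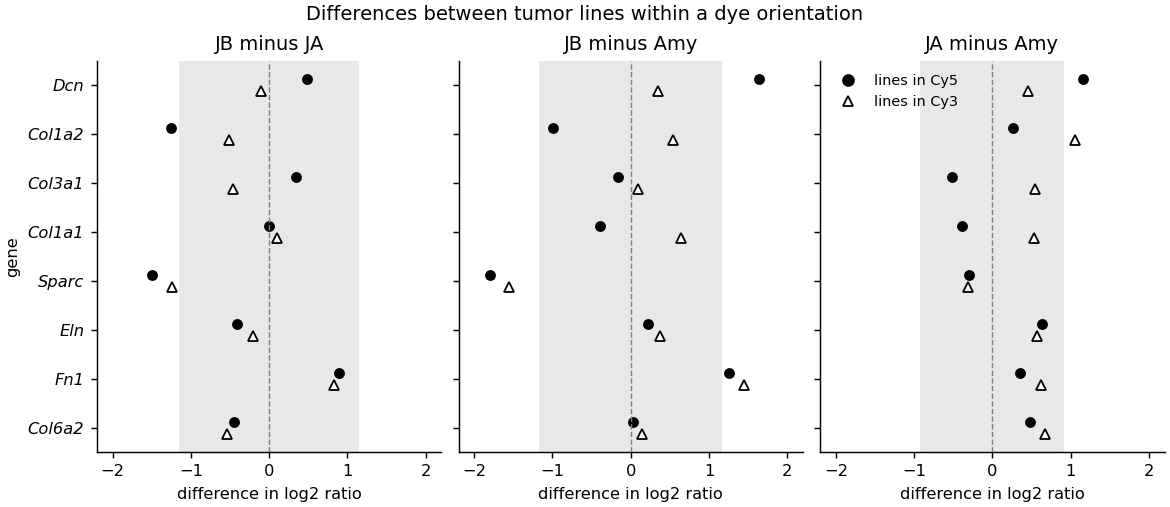
Difference in log2 ratio between 2 tumor lines (horizontal axis, one panel for each pair) for each gene (vertical axis), within the Cy5 orientation (filled circles) and the Cy3 orientation (open triangles); grey spans the 95th percentile of the absolute difference over all features, both orientations averaged. Sparc lies left of the grey in both panels that hold JB, and Fn1 lies right of it for JB minus Amy. Col3a1, Col1a1, Col1a2 and Dcn change side between orientations in at least 1 panel. In 1 orientation only, Dcn lies beyond the grey in both panels that hold Amy, and Col1a2 in both that hold JA.

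The difference between dye orientations took no part in choosing the genes, and it was tested for them. With the line in Cy5, decorin averaged -9.55, against -8.45 with the line in Cy3. The difference of -1.09 ± 0.65 (SD, n = 3 lines) had the same sign in all 3 lines and did not pass (limma, adjusted p = 0.0787). Col1a1 averaged -4.90 in Cy5 and -3.99 in Cy3, a difference of -0.91 ± 0.57 that was again negative in all 3 lines (limma, adjusted p = 0.0858). Col1a2 differed by -0.70 ± 0.77 (limma, adjusted p = 0.191), and was negative in JB and JA only. For Col3a1, Col6a2, Eln, Fn1 and Sparc the mean difference lay between -0.08 and 0.10, with adjusted p from 0.507 to 0.956 in limma. The mean of Col3a1 covers lines of opposite sign, with an SD of 0.55 over lines. That of Sparc covers clones of opposite sign, from -0.28 in D to 0.39 in A. None of the 8 genes passed, where 36 of 7180 features, 0.501%, did. At an unadjusted p under 0.05 the counts were 2 of 8 genes and 35.3% of all features.

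Within decorin the dye difference belonged to 1 clone: -2.37 for clone A and 0.18 for clone B. With every clone as its own feature, the adjusted p in limma was 0.0576 for clone A and 0.487 for clone B. The difference between clones in this respect was not tested. Averaging over orientations leaves decorin at -10.17 by clone A and -7.83 by clone B.

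**Figure D4:**
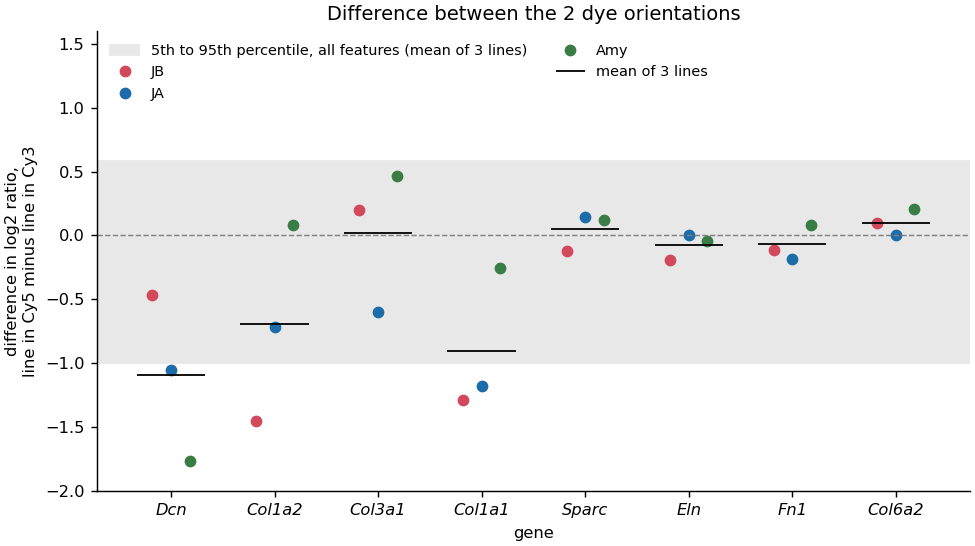
Difference in log2 ratio, line in Cy5 minus line in Cy3 (vertical axis), for each gene (horizontal axis); points are lines, bars are means of the 3 lines, and grey spans the 5th to 95th percentile of that mean over all features. Dcn, Col1a2 and Col1a1 average -1.09, -0.70 and -0.91, and the means of the other 5 genes lie close to 0. The points of Col3a1 spread to both sides of 0.

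Other genes of the matrix pathway were taken from 7 lists of 155 symbols, of which 37 genes were measured, none of them among the small leucine-rich and other proteoglycans besides decorin. In limma 19 were lower, 5 higher and 13 did not pass, or 51.4% lower and 13.5% higher, where 32.8% and 20.7% of all features were; their median was -0.54, against -0.12. Without JA the counts were 16 lower and none higher, where 1367 of all 7180 features were lower and 709 higher. With a spread assigned to the pool they were 15 and none, where 1303 features were lower and 667 higher. In the main fit 2356 features were lower and 1487 higher. The lists were chosen with earlier results of these data known, so their counts and shares describe them and test nothing.

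Of the 24 measured genes in the lists of collagens, elastic fibres, collagen processing and matricellular proteins, 17 were lower, none was higher and 7 did not pass. Among 3 other collagens, Col14a1, which associates with fibrils, stood at -2.15 ± 0.40 (SD, n = 3 lines) and the minor fibrillar chain Col5a1 at -1.34 ± 0.32, its clones at -0.59 and -2.10. Col18a1 stood at 0.39 ± 0.38 and did not pass. In the elastic fibre list 5 of 6 were lower. The microfibril-associated proteins Mfap5 and Mfap2 stood at -3.86 ± 0.41 and -2.16 ± 0.10, fibrillin-1 (Fbn1), the backbone of microfibrils, at -1.73 ± 0.85 and Ltbp4, which binds latent TGF-beta, at -1.51 ± 0.13. The clones of Ltbp4 stood at -3.07 and 0.05. Ltbp1, which also binds latent TGF-beta, at 0.14 ± 0.67, did not pass.

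Of 7 measured genes that modify or crosslink collagen, 5 were lower and 2 did not pass. Those 2 were P4ha1 at 0.64 ± 0.62 and Bmp1 at -0.54 ± 0.55 (SD, n = 3 lines). Without JB, P4ha1 was called higher at 0.99 and Bmp1 lower at -0.75. P4ha1 was also called higher, at 0.79, with the line in Cy3 alone. Plod2, a lysyl hydroxylase of collagen, stood at -4.26 ± 0.34, and Loxl1 and Loxl2, of the lysyl oxidase family that crosslinks elastin and collagen, at -3.19 ± 0.35 and -2.23 ± 0.20 (SD, n = 3 lines). Pcolce, which enhances the trimming of procollagen, stood at -1.90 ± 0.20. In the matricellular list 5 of 8 were lower. Srpx stood at -7.26 ± 0.63, matrix Gla protein (Mgp), an inhibitor of calcification, at -4.40 ± 0.10 and Smoc2, a Sparc-related protein, at -3.28 ± 0.25. The clones of Mgp stood at -5.99 and -2.81.

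Among 13 receptors and regulators the calls were 5 higher and 2 lower, or 53.8% called, where 53.5% of all features were. The β1 integrin chain Itgb1, shared by collagen and fibronectin receptors, stood at 0.73 ± 0.17 (SD, n = 3 lines), with clones at 1.40 and 0.06, and Itgb6, part of an epithelial fibronectin receptor, at 0.51 ± 0.28. The heparan sulfate proteoglycan Sdc2 stood at -3.49 ± 1.02. Among regulators, the growth factors Tgfb2 and Tgfb3, which can stimulate collagen synthesis, stood at 1.52 ± 1.03 and 1.06 ± 0.55, and Smad2, which carries their signal, at 0.50 ± 0.02. All 5 higher calls, of Itgb1, Itgb6, Tgfb2, Tgfb3 and Smad2, were lost without JA, as was the lower call of Tcf21. Calls over all features fell from 3843 to 2076 in that setting. Without JA the means of Tgfb2, Tgfb3 and Itgb6 rose, to 1.71, 1.17 and 0.62. Those of Itgb1 and Smad2 fell, to 0.63 and 0.498. The calls of Itgb6 and Smad2 were also lost without Amy, and that of Itgb6 without JB.

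**Figure D5:**
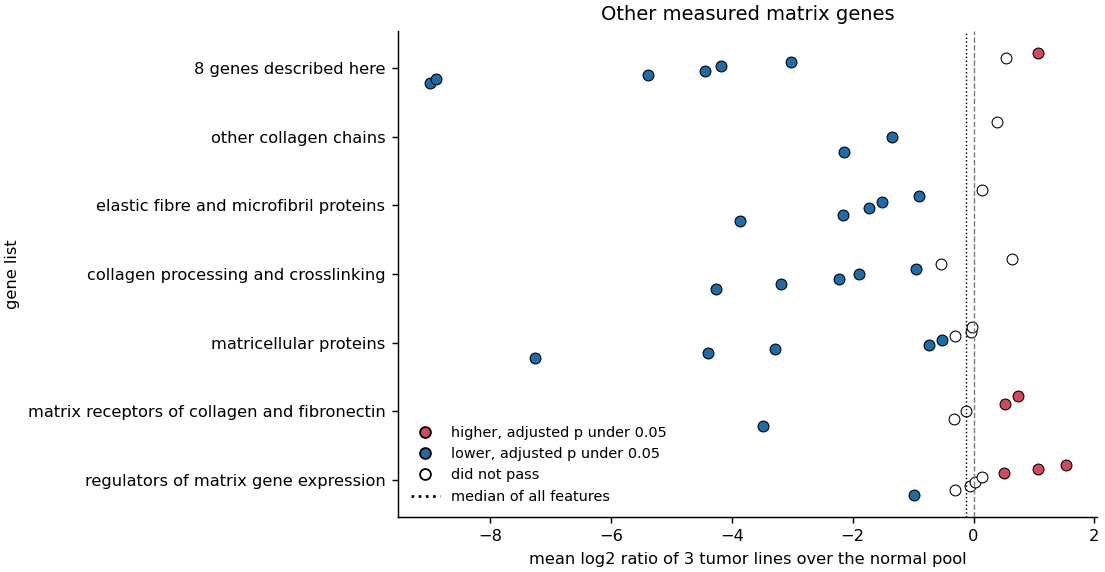
Mean log2 ratio of the 3 tumor lines over the normal pool (horizontal axis) for the 8 genes and for the measured genes of 6 further lists (vertical axis); each point is a gene, filled blue where lower and red where higher in limma, and open where it did not pass. In the lists of collagens, elastic fibres, collagen processing and matricellular proteins no point is red. The dotted line marks the median of all features at -0.12.

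Of these 37 genes, 3 met the rule for a line apart, and JB was that line in each, as for Sparc. Fbn1 stood at -2.51 with the line in Cy5 and -2.86 in Cy3 in JB, against -0.59 and -1.50 in JA and -1.31 and -1.59 in Amy. Sdc2 stood at -4.89 and -4.45 in JB, against -2.95 and -2.82 in JA and -3.28 and -2.56 in Amy. Both were thus lower in JB. Tgfb2 was higher there, at 2.77 and 2.61 in JB, against 1.29 and 0.99 in JA and 0.80 and 0.67 in Amy. Some line was apart for 2.77% of all features, with JB above both others for 1.3% and below both for 0.696%, and no difference between lines was tested.

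The gene most like each member over the 6 arrays, by the smallest root mean square difference among 3150 other named genes, was found as a description. For elastin it was Loxl1, with a difference of 0.24 and values of -3.13 in JB, -2.87 in JA and -3.56 in Amy. The order of the lines was the same as for elastin. Col3a1 lay nearest to Entpd1 at 0.25, Col6a2 to M6pr at 0.08, Fn1 to Tubgcp2 at 0.21, Col1a1 to Bnip3 at 0.47 and Sparc to Reck at 0.54. Decorin and Col1a2 both lay nearest to Cd36, yet at 1.77 and 1.69, so no other named gene came close to their ratios.

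Most measured markers of fibroblasts, muscle, leukocytes and endothelium were lower, as were 6 of the 8 genes, where 32.8% of all features were called lower in limma and 53.5% in either direction. Of 5 measured fibroblast and mesenchyme markers 4 were lower, with means from -3.30 to -0.24, and likewise 4 of 4 for muscle (-5.11 to -1.82), 8 of 9 for leukocytes (-5.22 to 0.67) and 3 of 3 for endothelium (-2.39 to -1.16). With dye orientation as a block, the calls of the fibroblast marker Tcf21 and the leukocyte marker Cd53 were lost. Those of the leukocyte markers Cd3e and Cd53 were lost with any 1 line left out. The calls of Tcf21, the muscle marker Tpm1 and the leukocyte marker Tyrobp, which was higher, were lost without JA. That of Tpm1 was also lost without Amy. A spread assigned to the pool ended the calls of Cd3e, Cd53, Tcf21, Tpm1 and Tyrobp. With the line in Cy3 alone, Cd53 was called higher at 0.73, against a mean of -0.48 over both orientations. Many defining markers, among them Vim, Acta2, Ptprc and Pecam1, were not measured as named genes. Of 20 squamous markers 2 were measured, both lower (Lgals7 at -5.82 ± 1.01 and Cstb at -0.68 ± 0.46, SD, n = 3 lines) and no basal keratin among them. Of 10 simple epithelium markers 3 were measured and went different ways: the tetraspanin Tspan8 was higher at 3.14 ± 0.37, the keratin Krt7 lower at -0.76 ± 0.38, and the keratin Krt8, at 0.41 ± 0.40, did not pass. The calls of Cstb and Krt7 were lost without JA, that of Cstb also without JB and that of Krt7 also without Amy. Ratios against the pool give no level in either, so these values do not show whether the lines or the pool are epithelial. In ratios against a pool, fewer cells of a type and less RNA per cell cannot be told apart, and the part of these markers in the matrix result was not tested.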

How the data were processed

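The deposited values are log ratios, 1 per spot and array, used as log2 ratios; scanner, background correction, normalization, spot filter and log base are not given in the sources used here. A single symbol was annotated for 8084 of 16128 spots, several for 40 and no symbol for 8004; 8076 spots matched RefSeq genes of assembly GRCr8 by identifier. Spots of a gene were averaged, then the 2 arrays of a line. The mean of 3 lines, and the difference between dye orientations, were tested against 0 with limma 3.58.1 (R 4.3.3; lmFit, eBayes, two-sided, Benjamini-Hochberg over 7180 features, threshold 0.05), after tests on simulated data. No filter was applied. The pool is 1 control sample whose own spread is left out. The replicate number is the dye orientation, per the labels; orientation differences correlated at 0.526 to 0.613 between lines, so the numbers pair the arrays. Members and lists were chosen with earlier results of these data known. Named were all members, up to 4 called genes per list with 1 sign on all arrays by size, up to 2 markers per list, and the nearest gene; those that did not pass were added after their values were seen. Figures used matplotlib 3.10.9.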

Additional observations from a re-analysis of the deposited data

Results flagged for a closer look

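Fibronectin (Fn1) lay on opposite sides of 0 in different lines on both of their arrays: it was above 0 in JB and JA and below 0 in Amy. JB minus Amy was 1.35 and JA minus Amy was 0.49 on the log2 scale. These differences were not tested, since each line is 1 extract. By clone B alone Amy lay above 0. The sign in Amy also depended on where 0 was set. Fn1 read -0.038 there with the line in Cy5 and -0.117 in Cy3. The medians of all spots on these arrays were lower, at -0.128 and -0.129. Once those medians are subtracted, Fn1 lies above 0 on both Amy arrays, and the difference in sign is gone. Lines and arrays were too few for a check of single outlying samples.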

How the results depend on the processing

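Of 7180 features, 3843 were called between lines and pool; the count was 2076 to 3698 with 1 line left out, 1970 with a spread assigned to the pool, that of 2 averaged lines, and 1040 without moderation of the variances. With the replicate block (dye orientation, line as a random block) it was 3913, and members kept 7 calls in number. Without moderation members kept 5, with the calls of Sparc and Col6a2 lost. Among the other matrix genes named with values the block changed no call. Among those without printed values it ended the lower calls of Tcf21 and Tnr and added a lower call of Ddr1. Of 24 calls among other matrix genes, 15 were left with a spread for the pool and 11 without moderation. The 36 features that depended on dye orientation became 440 under quantile normalization and 0 with any 1 line left out, a setting with fewer differences to test. Features with 1 line apart numbered 990 at a size of 0.5 and 22 at 2, against 199 at 1; members numbered 2 at 0.5, 0 at 2 and 2 with clones as features, against 1. No mean of a member changed sign under another scaling, dye orientation, clone or set of lines: 66 of 74 such values moved by no more than the SD over lines, and 8 moved further, for Dcn, Col1a1 and Col3a1. Where not stated, the cause was not tested. Low ratios rest on channels whose signal over background was not used here.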
